A study of Homo sapiens with 12 samples.

Results

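The 6 genes described here, FOS, EGR1, EGR2, ATF3, DUSP1 and ID3, encode immediate early transcription factors and feedback regulators of growth factor and stress signalling. They were chosen by name from 3 tables of genes that the study listed as changed after breast cells passed through a narrow constriction, and 3090 different genes appear in those tables. The MCF-10A table lists 1 of the 6 genes among 2680, that of MDA-MB-231 holds 2 among 381 and that of LM2 5 among 97, which gives 8 rows in all. EGR2 and ATF3 are each in 2 tables and the other 4 genes are in the LM2 table alone. Every listed gene was selected on these same libraries, with constriction compared with control, and the 6 genes were picked because they are listed. All values below are therefore a description and carry no test. A gene that a table does not list has no value here for that cell line.

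The study asked how transit through a capillary-sized channel changes gene expression. MDA-MB-231 is a metastatic triple-negative breast cancer line, LM2 is its lung-metastatic derivative, while MCF-10A cells are epithelial cells of non-malignant breast. Cells of each line were pushed by hydrostatic pressure of 7 to 33 cmH2O through channels with a width and a height of 5 µm and a length of 150 µm and were collected after transit. Controls were cells of the same line that did not transit. The methods do not say how long controls were held in suspension while the devices ran. Each group has 2 libraries of poly(A) RNA, 12 in all. The study's methods describe each experiment as run on 2 occasions, as biological replicates. Its supplement lists a control and a constriction sample together for each replicate. Libraries with equal replicate numbers may thus be pairs, but the standard errors (SE), overlaps and leave-outs below treat them as unpaired. MDA-MB-231 and LM2 cells grew with fetal bovine serum, and MCF-10A cells with horse serum, insulin, hydrocortisone, cholera toxin and epidermal growth factor. For the second LM2 constriction library the title says replicate 2 but the description says replicate 1, and the title was followed. Libraries held 29978695 to 53584754 counted reads, as recovered from the counts, lengths and FPKM values. In MDA-MB-231 and LM2 the study's supplement gives much less total RNA for each constriction sample than for its control. For MCF-10A it gives less for replicate 1 and more for replicate 2. The part of RNA amount in the ratios was not tested. In MCF-10A, 2402 of the 2680 listed genes (89.6%) have 0 reads in both constriction libraries. The tables list genes by their change and not by their expression, so the cell line labels could not be checked against markers. Of 16 epithelial markers the MCF-10A table lists KRT19 and CLDN4, and neither of the other tables lists any.

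Immediate early genes are transcribed within minutes of a stimulus such as serum, growth factors, stress or deformation of the cell, without the need for new protein synthesis. Signals through mitogen-activated protein kinases act on factors already bound to their promoters, among them the serum response factor at CArG boxes and CREB or ATF proteins at cyclic AMP response elements (CREs). The messages are short-lived, and products such as the phosphatase DUSP1 switch the same kinases off again.

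Promoter windows of FOS, EGR1, EGR2 and DUSP1 are shown because they hold matches to these elements. ID3 also has a match, but its window lies inside an annotated exon and is not printed. The windows come from RefSeq (GRCh38.p14) and end at the base before the RefSeq start, except that FOS ends before its first annotated exon. For EGR2 the window is that of the first of 3 starts by coordinate, the most downstream one on its minus strand. The windows are chr14:75278578-75278773 (plus strand) for FOS, chr5:138465229-138465478 (plus strand) for EGR1, chr10:62816367-62816616 (minus strand) for EGR2 and chr5:172771196-172771445 (minus strand) for DUSP1. Capitals mark CREs or their cores, CArG boxes and TATA boxes, on either strand.
FOS: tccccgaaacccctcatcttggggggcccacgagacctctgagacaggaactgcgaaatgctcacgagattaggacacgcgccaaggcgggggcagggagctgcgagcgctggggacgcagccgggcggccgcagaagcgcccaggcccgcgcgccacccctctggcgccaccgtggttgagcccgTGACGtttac
EGR1: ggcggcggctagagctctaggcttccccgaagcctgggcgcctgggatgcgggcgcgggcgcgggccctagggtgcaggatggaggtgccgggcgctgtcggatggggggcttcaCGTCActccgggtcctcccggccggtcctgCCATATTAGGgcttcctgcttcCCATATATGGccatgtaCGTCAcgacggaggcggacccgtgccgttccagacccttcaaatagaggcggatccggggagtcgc
EGR2: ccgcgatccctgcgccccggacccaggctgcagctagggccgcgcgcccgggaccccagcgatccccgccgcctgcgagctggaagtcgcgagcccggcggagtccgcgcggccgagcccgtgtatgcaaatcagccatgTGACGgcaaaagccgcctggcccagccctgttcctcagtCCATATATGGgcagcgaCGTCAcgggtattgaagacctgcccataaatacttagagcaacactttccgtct
DUSP1: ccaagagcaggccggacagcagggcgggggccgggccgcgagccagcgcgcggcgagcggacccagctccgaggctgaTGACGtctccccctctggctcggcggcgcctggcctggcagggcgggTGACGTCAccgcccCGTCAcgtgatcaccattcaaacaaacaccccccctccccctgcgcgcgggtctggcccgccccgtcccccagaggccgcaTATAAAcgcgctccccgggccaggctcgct

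All 8 rows had a lower mean normalised count after transit than in the controls. Normalised counts here are reads after division by each library's size factor. In 6 of the 8 rows both constriction libraries lay below both control libraries. That held for 1 of 1 row in MCF-10A, where it also held for 94.5% of all listed genes, for 1 of 2 rows in MDA-MB-231 (32.5% of listed genes) and for 4 of 5 rows in LM2 (40.2% of listed genes). These shares come from the contrast that chose the genes, so nothing is read from them. In LM2 the 5 genes were 1.81 to 3.42-fold lower, with a median log2 ratio of -1.35, and the median over all 97 listed genes was 1.08, or 0.97 with genes at 0 in a whole group set to a floor of 3 reads. Fewer cells expressing a gene and less RNA per cell cannot be told apart in these bulk libraries.

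**Figure D1:**
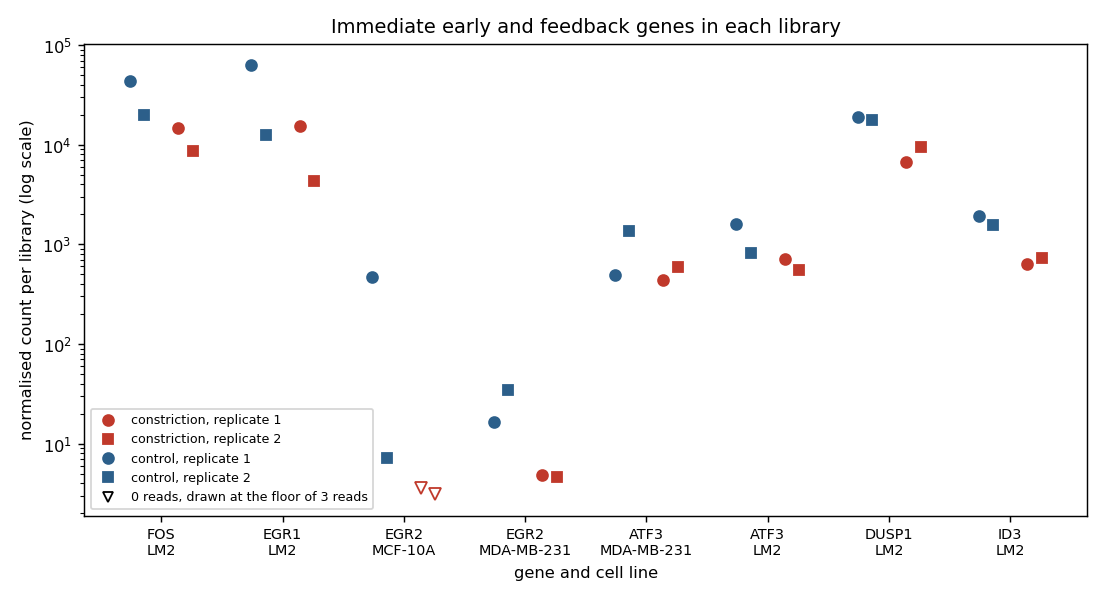
Normalised count (log axis) of each member in each library, controls in blue and constriction libraries in red, with circles for replicate 1 and squares for replicate 2. EGR1 in LM2 and ATF3 in MDA-MB-231 overlap between the groups, and EGR2 in MCF-10A has 0 reads in both constriction libraries, drawn at the floor of 3 reads.

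FOS, the partner of JUN proteins in the AP-1 transcription factor, lies at chr14:75278774-75282230 on the plus strand. It had 44036 and 19689 normalised counts in the 2 LM2 control libraries and 14695 and 8745 in the 2 constriction libraries. These were 49964 and 19509 raw reads in the controls and 12702 and 9168 after transit. Both constriction libraries were below both controls, and the second control was the closer of the controls to them. The log2 ratio, the difference between the groups' means of log2(normalised count + 1), was -1.38 ± 0.69 (SE, n = 2 per group), or 2.60-fold lower. Counting error was small beside that spread, at 0.012 on the log2 scale. Within replicate numbers FOS was 3.0-fold lower for replicate 1 and 2.25-fold lower for replicate 2.

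ATF3, a CREB/ATF family factor induced by many kinds of stress, lies at chr1:212565334-212620777 on the plus strand. In LM2 it had 1591 and 816 normalised counts (1805 and 809 reads) in the controls and 715 and 554 (618 and 581 reads) after transit. The groups did not overlap, but the lower control was only 1.14 times the higher constriction library. The log2 ratio was -0.86 ± 0.51 (SE, n = 2 per group), with ATF3 2.23-fold lower for replicate 1 and 1.47-fold lower for replicate 2. In MDA-MB-231 ATF3 had 490 and 1351 normalised counts (386 and 1571 reads) in the controls and 434 and 597 (444 and 646 reads) after transit. There the groups overlapped, with the second constriction library 1.22 times the first control. Its log2 ratio of -0.68 ± 0.77 (SE, n = 2 per group) rested on the second control: without that library it was 0.055, and without the first control ATF3 was 2.65-fold lower. Within replicate numbers it was 1.13 and 2.26-fold lower.

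EGR1, a zinc finger factor that growth factors and serum induce strongly, lies at chr5:138465490-138469315 on the plus strand. It had 62510 and 12552 normalised counts (70925 and 12437 reads) in the LM2 controls and 15555 and 4318 (13445 and 4527 reads) after transit. The first constriction library stood 1.24 times above the second control, so the groups overlapped. Within replicate numbers EGR1 was lower after transit in both, 4.02-fold for replicate 1 and 2.91-fold for replicate 2. The log2 ratio of -1.77 ± 1.48 (SE, n = 2 per group), or 3.42-fold lower, moved with each library left out: 1.80-fold without the second constriction library, 6.49-fold without the first, 1.53-fold without the first control and 7.63-fold without the second. The direction was the same in each case. Both the SE and these leave-outs treat the libraries as unpaired, whereas the log2 ratios within replicate numbers were -2.01 and -1.54.

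EGR2, a relative of EGR1 that binds the same GC-rich sites, is annotated at chr10:62811996-62919900 on the minus strand. In MCF-10A it had 482 and 9 reads in the controls, or 472 and 7.11 normalised counts, and 0 reads in both constriction libraries. For a count of 0 the floor was set at 3 reads, close to the one-sided 95% limit, or 3.62 and 3.11 normalised counts in these libraries. The upper end of the two-sided exact Poisson 95% interval is 3.69 reads, which would make the bounds that follow smaller. All bounds here take the control counts as exact. Against that floor, kept per library, EGR2 was at least 130-fold lower for replicate 1 and at least 2.29-fold lower for replicate 2. The exact Poisson 95% interval of the 9 reads is 4.12 to 17.1, so with counting error the second control may lie close to the floor. The mean of the log2 bounds gives at least 17.3-fold. One control library carried most of this: without the first control the bound was 2.12-fold, and without the second it was 141-fold. Averaging counts before taking the log gave at least 71.3-fold. Scaling by trimmed mean of M-values (TMM) factors of the listed genes gave a mean of 33.3-fold against the floor, which rests on replicate 1. Those factors were 7.61 and 0.25 for the 2 constriction libraries. Within replicate numbers the control stood at 1271 times the floor for replicate 1. For replicate 2 it stood at 0.87 times the floor, which gives no bound.

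In MDA-MB-231 EGR2 was near the limit of detection, with 13 and 40 reads in the controls and 5 reads in each constriction library. The exact Poisson 95% interval of 5 reads is 1.62 to 11.7 and that of 13 reads is 6.92 to 22.2, so the intervals of the first control and the constriction libraries overlap. Intervals of this kind cover counting error only. In normalised counts the controls held 16.5 and 34.4 and the constriction libraries 4.89 and 4.62, and the groups did not overlap. These values were 3.38-fold lower for replicate 1 and 7.45-fold lower for replicate 2. The log2 ratio was -2.11 ± 0.51 (SE, n = 2 per group) or 4.33-fold lower, with a counting error of 0.51 that equalled the spread between libraries. With a pseudocount of 10 it was 2.33-fold lower.

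DUSP1, the dual-specificity phosphatase that inactivates mitogen-activated protein kinases, lies at chr5:172768090-172771195 on the minus strand. It had 19028 and 17730 normalised counts (21589 and 17568 reads) in the LM2 controls and 6649 and 9519 (5747 and 9979 reads) after transit. The controls differed by only 1.07-fold, and both constriction libraries were well below them. The log2 ratio was -1.21 ± 0.26 (SE, n = 2 per group), or 2.31-fold lower, with 2.86 and 1.86-fold within replicate numbers. An antisense gene, AC022217.3, spans DUSP1 on the opposite strand, and the sources do not say which libraries kept strand, so reads of the pair cannot be told apart.

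ID3, a helix-loop-helix protein without a DNA-binding region that holds partner factors away from DNA, lies at chr1:23557918-23559794 on the minus strand. It had 1907 and 1568 normalised counts (2164 and 1554 reads) in the LM2 controls and 634 and 728 (548 and 763 reads) after transit. The controls differed by 1.22-fold and the constriction libraries by 1.15-fold. The log2 ratio was -1.35 ± 0.17 (SE, n = 2 per group), or 2.54-fold lower, with a counting error of 0.047. Within replicate numbers ID3 was 3.01 and 2.15-fold lower. Of the 7 rows for which an SE could be given, ID3 had the smallest, with libraries taken as unpaired. Between the 2 replicate numbers, the log2 ratios of FOS and EGR1 lay closer together than those of ID3. Those of ATF3 and DUSP1 in LM2 lay further apart.

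The controls themselves differed in several of these genes. In 3 of the 8 rows the ratio between the 2 controls was larger than the ratio between the groups: EGR1 and ATF3 in LM2 and ATF3 in MDA-MB-231. For EGR2 in MCF-10A the ratio between the groups is a lower bound and cannot be ranked against that between the controls. For EGR1 in LM2 the controls were 4.98-fold apart, and only 8 of the 52 listed genes averaging 10 or more normalised counts differed more. For ATF3 in MDA-MB-231 they were 2.76-fold apart, and 13 of 259 genes differed more. EGR2 was 66.4-fold apart between the MCF-10A controls, or 58.3-fold after 1 was added to each value, and on the latter scale 6 of 1209 genes differed more. DUSP1 and ID3 stood at the other end, with 48 and 42 of 52 LM2 genes more different between the controls. The 5 LM2 genes were all higher in the first control, as were 60.8% of listed genes there, while both genes in MDA-MB-231 were higher in the second, as were 48.3% of listed genes there.

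**Figure D2:**
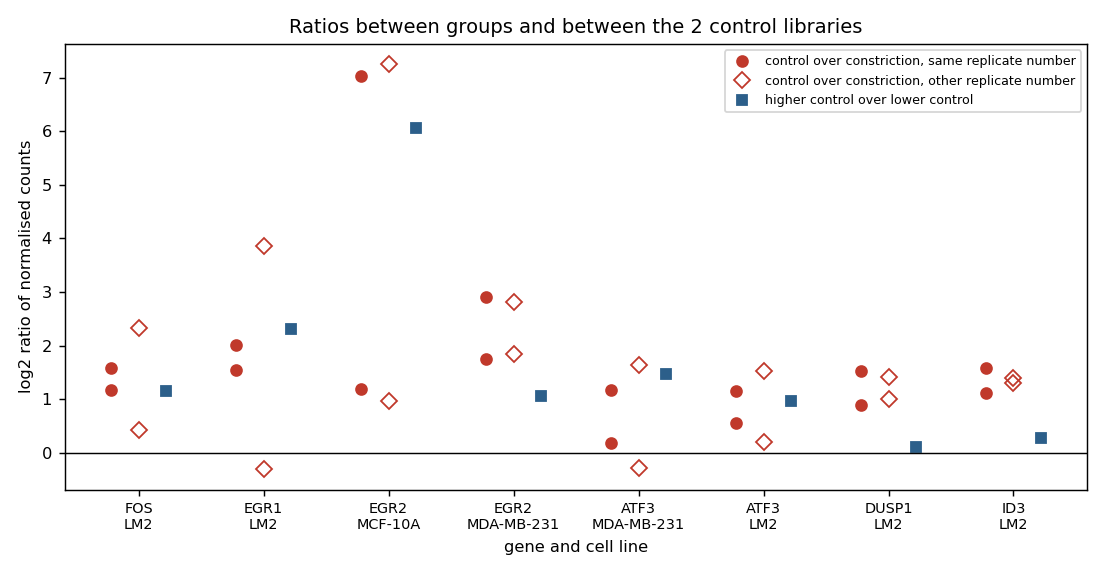
Log2 ratios of normalised counts for each member: control over constriction within a replicate number (filled circles) and across numbers (open diamonds), and the higher over the lower control (squares), with 0 reads set to the floor of 3 reads. DUSP1 and ID3 have control-to-control ratios of 1.07 and 1.22-fold, far under their ratios between groups, while EGR1 in LM2 and ATF3 in MDA-MB-231 each have an open diamond below 0.

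**Figure D3:**
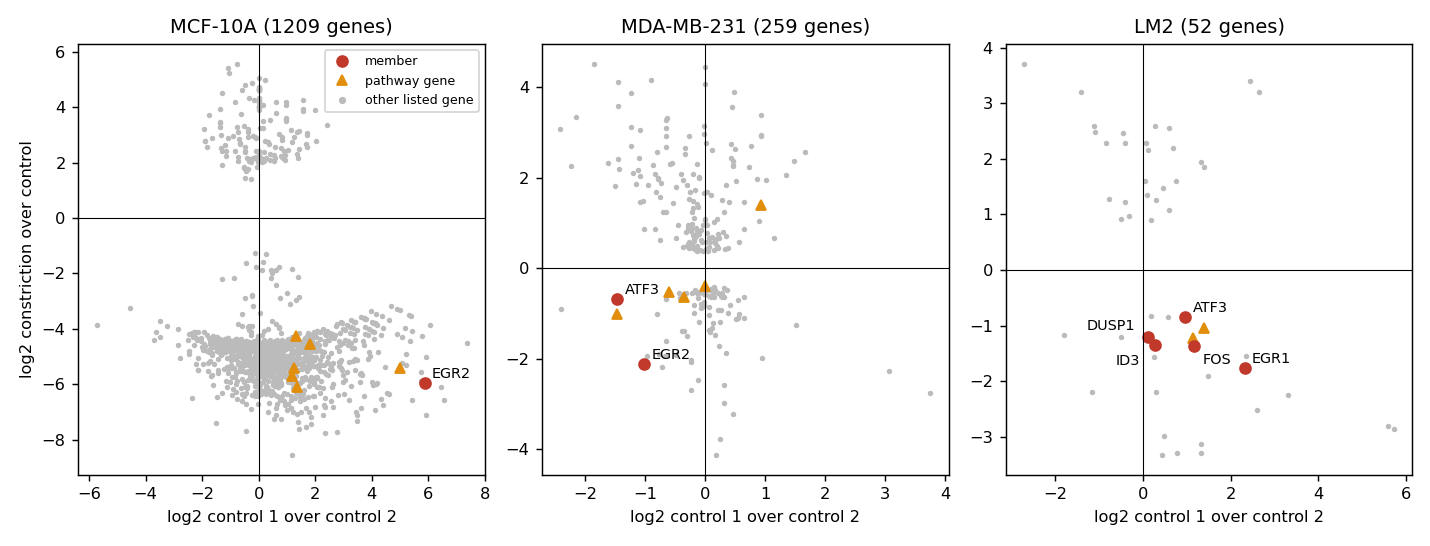
Each point is a listed gene averaging 10 or more normalised counts, in panels of 1209, 259 and 52 genes: log2 of control 1 over control 2 on the x axis and log2 of constriction over control (pseudocount 1) on the y axis, with members in red and other pathway genes in orange. Few listed genes lie near 0 on the y axis, and EGR2 in MCF-10A lies far to the right; its height depends on the pseudocount.

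Levels of different genes were compared per length, in FPKM. In the LM2 controls EGR1 was at 262 ± 252 FPKM, FOS at 214 ± 122 and DUSP1 at 196 ± 17.0 (SD, n = 2 each), and these 3 neighbours did not differ beyond their spread. ID3 followed at 20.8 ± 3.64 FPKM and ATF3 at 6.46 ± 3.15 FPKM, each below every library of the gene before it. After transit the order was DUSP1 at 86.3 ± 15.6, FOS at 79.8 ± 34.0, EGR1 at 70.9 ± 60.1, ID3 at 8.22 ± 0.206 and ATF3 at 3.44 ± 0.860 FPKM. DUSP1, FOS and EGR1 again overlapped, and their order by mean was the reverse of that in the controls. EGR2 was at 3.62 and 0.053 FPKM in the MCF-10A controls and at 0.095 and 0.20 FPKM in the MDA-MB-231 controls. ATF3 was at 2.57 and 7.26 FPKM in the MDA-MB-231 controls.

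The genes whose pattern over the 4 libraries of a table was most like each member were found by the largest difference in centred log2 values. For FOS in LM2 they were ZFP36 (0.18), which encodes a protein that destabilises AU-rich messages, NR4A1 (0.29), an immediate early nuclear receptor, and ATF3 (0.45). ZFP36 and NR4A1 also led for ATF3 in LM2, at 0.28 and 0.31, followed by the pseudogene EEF1A1P6 at 0.33. EGR1 was closest to NAIP (0.55), FOS (0.78) and ZFP36 (0.93). DUSP1 and ID3 were each other's nearest gene, at 0.23. Next for both was the ribosomal protein pseudogene RPL39P3, whose reads may belong to its parent gene, at 0.25 for DUSP1 and 0.24 for ID3. The last of the 3 was RPL26 (0.31) for DUSP1 and EEF1A1P6 (0.40) for ID3. In MDA-MB-231 ATF3 was closest to PTGS2 (0.28), the inducible cyclooxygenase, to PGGHG (0.41) and to CSRNP1 (0.51). EGR2 there was nearest to MT-TT (0.18), AC040977.1 (0.40) and AC004771.5 (0.44), which are not immediate early genes. In MCF-10A, EGR2 was nearest to LTF (0.091), VTCN1 (0.26) and SCGB1A1 (0.35), all with 0 reads after transit, so the match rests on the controls. LTF had 434 and 7.11 normalised counts in the controls.

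Beyond the 6 genes, 7 lists of related genes (181 different genes) were looked up in the tables. The MCF-10A table lists 8 of them, all lower after transit, the MDA-MB-231 table lists 5, of which 4 were lower, and the LM2 table lists 2, both lower. Of all listed genes, 94.5% were lower in the MCF-10A table, 33.3% in that of MDA-MB-231 and 46.4% in that of LM2, and these shares too follow from the selection of the tables. By median, all listed genes had a log2 ratio of -3.91 in MCF-10A, and of 0.97 in MDA-MB-231. With genes at 0 in a whole group set to the floor of 3 reads, these medians were -2.11 and 0.94. In LM2 the 2 were NR4A1 and ZFP36. NR4A1 had 1597 and 610 normalised counts in the controls and 568 and 400 after transit. ZFP36 had 4119 and 1867 in the controls and 1421 and 980 after transit. Neither overlapped, and both were higher in the first control, as FOS, EGR1 and ATF3 were.

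In MDA-MB-231 the 5 were all from the list of other immediate early genes, which has 50 members. PTGS2 had 252 and 703 normalised counts in the controls and 165 and 265 after transit, and overlapped between groups. CSRNP1 had 1108 and 1677 in the controls and 962 and 928 after transit. SGK1, a kinase induced by serum and glucocorticoids, had 1403 and 1798 in the controls and 889 and 1167 after transit. PTGS2, CSRNP1 and SGK1 were each highest in the second control, where ATF3 and EGR2 were also highest. AREG, a ligand of the epidermal growth factor receptor, had 3184 and 3181 in the controls and 2366 and 2506 after transit. ARC was the gene with a higher mean, with 112 and 21.2 after transit against 25.4 and 12.9 in the controls, and its groups overlapped.

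In MCF-10A the related gene EGR3, of the list of 14 AP-1 and EGR factors, had 1022 and 30.8 normalised counts in the controls and 0 and 16.6 after transit. It was 33.2-fold higher in the first control than in the second, the library in which EGR2 was also high. ID2, a relative of ID3 and 1 of 2 listed genes of the 19 ID, BMP and TGF-beta genes, had 2341 and 671 in the controls and 10.8 and 242 after transit. BMP6, the other, had 0 reads in both constriction libraries. So had KLF2 and SNAI1 (of 50 other immediate early genes), DUSP8 and SOCS1 (of 31 feedback inhibitors) and BATF2 (of 28 ATF family stress genes). KLF2 had 109 and 41.8 normalised counts in the controls, and DUSP8 had 78.3 and 34.0. No table lists any of 24 ERK cascade genes or 15 YAP and mechanical stress target genes. Of 10 markers of other cell types MCF-10A lists PECAM1 and PDGFRB, both with 0 reads after transit and 69.5 and 37.9, and 21.5 and 17.4, normalised counts in the controls. CLDN4 had 2535 and 2338 in the controls and 987 and 442 after transit, while KRT19 had 5 and 21 reads in the controls and 0 after transit. No table lists any of 8 mesenchymal markers. The part of these markers in the EGR2 result was not tested.

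In the annotation, FOS, EGR1, DUSP1 and ID3 are compact, spanning 3457, 3826, 3106 and 1877 bases against a median of 26929 over 19659 coding genes of GENCODE release 29. ATF3 and EGR2 span 55444 and 107905 bases, with distant annotated starts. The main transcripts of the 6 genes have 2 to 4 exons, where the median coding gene has 8. AU-rich ATTTA words in the 3′ UTR, a feature of many short-lived messages, numbered 5 in FOS, 4 in DUSP1, 3 in ATF3, 2 in EGR2 and 1 each in EGR1 and ID3. The median coding gene has 1, and 35.9% have 3 or more.

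In the promoter windows, from 250 bases before to 50 after each of 9 RefSeq starts of the 6 genes, matches were searched on both strands. The full CRE, TGACGTCA, occurs 125 bases before the DUSP1 start and in 1.85% of all 35116 promoters of the table. Its core TGACG, which the full CRE contains, occurs in 1 window each of FOS, EGR1, EGR2, DUSP1 and ID3 and in 24.6% of all promoters. CArG boxes occur in EGR1, 105 and 83 bases before the start, and in EGR2, 71 bases before it, and in 1.29% of all promoters. The other windows hold none, which says nothing of bases outside the windows. A TATA box, TATAAA, occurs 33 bases before the FOS start, 30 before DUSP1 and 230 before the second ATF3 start (11.5% of all). GGCGCC was found in FOS, EGR1 and DUSP1 (19.2% of all). No window holds the AP-1 words TGACTCA or TGAGTCA (4.95%), the EGR words GCGGGGGCG or GCGTGGGCG (5.77%) or the ETS word CCGGAA (17.2%), which says only that these letters are not in the windows.

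EGR1 and EGR2 share one arrangement. In both windows the box CCATATATGG begins 17 bases before a CRE core on the opposite strand, at 83 and 66 bases before the EGR1 start and at 71 and 54 before that of EGR2. Of the 35116 promoters, 2 hold this pair at this spacing, those of EGR1 and EGR2. The pattern was picked after the sequences had been seen, so its rarity is a description.

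**Figure D4:**
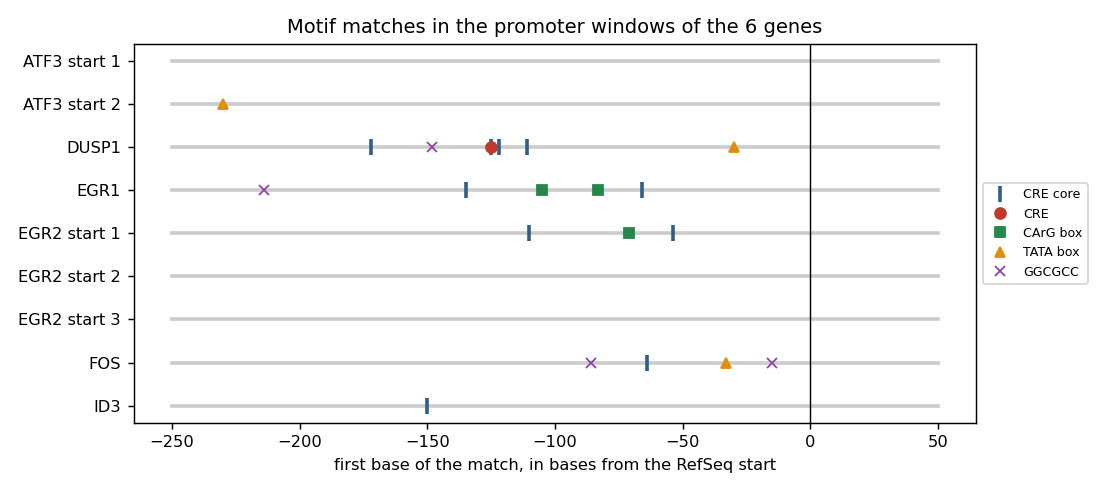
Motif matches in the 9 promoter windows, by distance in bases of the first matched base from the RefSeq start, each grey line being a window. EGR1 and the first EGR2 start by coordinate have CArG boxes next to CRE cores, and the full CRE is in DUSP1.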

How the data were processed

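RNA of 12 libraries (3 cell lines, constriction and control, 2 libraries each) was sequenced. The submitters' notes name fastp, HISAT2 2.0.5, featureCounts 1.5.0-p3, DESeq2 1.20.0 and GRCh38. The authors deposited, for listed genes, read counts per gene, normalised counts (a signal scaled by library size factors) and FPKM. Start and end of every listed gene equal those of GENCODE release 29. The deposited p-value column served only to check that every listed gene is under 0.05. The authors' fold changes, adjusted values, group means and enrichment tables were not used.

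The 6 genes and the lists were chosen with earlier results of these data known, so no test was run. Groups came from sample titles. Named genes are the members, any listed gene of the lists, and the 3 genes most like each member among those with a mean normalised count of 10 or more. The log2 ratio used a pseudocount of 1. Where both constriction libraries had 0 reads, folds of a named gene were taken against a floor of 3 reads per library, and other zeros kept the pseudocount. Alternatives were scaling by total reads, TMM factors (edgeR 4.0.16), pseudocounts of 0.5 and 10, log2 of mean counts, and leaving out each library. TMM over tables of selected genes is not a neutral scaling. Scripts used R 4.3.3, Python 3.11.15 and scipy 1.17.1 and were tested on simulated data. For each gene's structure 1 coding transcript was taken, by APPRIS level and then length.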

Additional observations from a re-analysis of the deposited data

How the results depend on the processing

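Of the 8 rows, 8 stayed lower after transit with scaling by total reads, with TMM factors and among rows averaging 10 or more normalised counts, and 7 to 8 did with each library left out. Rows without overlap numbered 6 with total reads, 6 with that minimum, 7 with TMM factors and 7 with any 1 library left out of all 3 tables, where a group of 1 overlaps less easily by construction. Over 86 log2 ratios under the alternatives, 85 were negative. The exception in sign was ATF3 in MDA-MB-231, which went from -1.41 without the first control to 0.055 without the second, and the cause was not tested. TMM factors moved the difference between groups for every gene on the log2 scale, by -0.94 for MCF-10A, by -0.41 for MDA-MB-231 and by 0.27 for LM2. Relative to that shift each member's ratio was unchanged apart from the effect of the pseudocount, and DUSP1 and ID3 in LM2 stood at -0.93 and -1.07. A pseudocount of 10 gave -1.22 for EGR2 in MDA-MB-231. No paired test was run, since no value here was tested, and the replicate numbers served only for ratios. As ratios within replicate numbers, all 8 rows were lower in both numbers, as were 94.5% of listed genes for MCF-10A, 33.1% for MDA-MB-231 and 43.3% for LM2, with values ranging in LM2 from -0.56 (ATF3) to -2.01 (EGR1). Counting error reached the spread between libraries for EGR2 in MDA-MB-231, at 5 to 40 reads, and lay far below it for FOS, EGR1, DUSP1, ID3 and ATF3.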
